A study of Mus musculus with 22 samples.

Results

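The neurogenic basic helix-loop-helix (bHLH) genes described here are Neurog2, Neurod1, Neurod2, Neurod6 and Nhlh1. They encode transcription factors that bind DNA as dimers with partner bHLH proteins and drive progenitors of the dorsal forebrain towards neurons. Neurog2 is the proneural gene of cortical progenitors, Neurod1 acts in newly committed cells, Neurod2 and Neurod6 act in differentiating glutamatergic neurons, and Nhlh1 is known from newly formed neurons. H3K4me3 marks active and poised promoters, H3K27me3 is laid down by Polycomb repressive complex PRC2, and developmental promoters rich in CpG sites often carry both in progenitors.

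Members were all peaks that overlap a fixed mm9 interval around each gene, 51 of the 110069 peaks in the 10 lists (38 of H3K4me3 and 13 of H3K27me3). The intervals were 127.32 to 127.35 Mb of chromosome 3 for Neurog2, 79.28 to 79.3 Mb of chromosome 2 for Neurod1, 98.17 to 98.2 Mb of chromosome 11 for Neurod2, 55.61 to 55.64 Mb of chromosome 6 for Neurod6, and 173.975 to 173.995 Mb of chromosome 1 for Nhlh1. The genes were chosen by the presence and absence of H3K4me3 and H3K27me3 peaks in these lists, so every pattern below is a description and none was tested.

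Cells purified from the developing neocortex of C57BL/6JOlaHsd mice were profiled by ChIP-seq, which sequences the DNA that an antibody to a histone mark pulls down. The earliest cortical progenitors, neuroepithelial cells (NEC), were taken at embryonic day 9.5 (E9.5). Radial glia, the later progenitors, were taken at E14.5 as a proliferative (aRG-P) and a neurogenic (aRG-N) apical type and a basal type (bRG), together with neurons (N). Each cell type and mark had 2 samples, 20 in all, and 2 Input samples mixed both ages. The labels name no genetic change or treatment, and they call the aRG-N H3K27me3 pair technical replicates. NEC differ from the other cells in age as well as type, and these cannot be told apart. The authors gave 1 peak list per cell type and mark, made on combined samples, so no value has a replicate spread and read depth is unknown. The H3K4me3 lists held 14801 to 17867 peaks and the H3K27me3 lists 3476 (bRG) to 9460 (NEC). How the cell types were sorted is not given in the sources used here. Labels could not be checked against markers of each cell type, since the files carry positions without gene names.

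Promoters of the 5 genes differ in CpG content. The 250 bases before the RefSeq start of each gene (build GRCm38.p6, all 5 matched by symbol) held 22 CpG in Neurod1, 11 in Neurod2, 8 in Neurog2, 3 in Neurod6 and 2 in Nhlh1, against a median of 6 over 32851 promoters. Neurod1, with the most, stood at percentile 85.9. Neurod6 and Nhlh1 stood at 33.4 and 23.9. These 3 are printed because they bracket the range, with CpG in capitals. All lie on the minus strand, Neurod1 at chr2:79456637-79456886, Neurod6 at chr6:55681264-55681513 and Nhlh1 at chr1:172057597-172057846. These GRCm38.p6 positions cannot be set against the mm9 peak positions that follow, so no peak was placed relative to them.
Neurod1: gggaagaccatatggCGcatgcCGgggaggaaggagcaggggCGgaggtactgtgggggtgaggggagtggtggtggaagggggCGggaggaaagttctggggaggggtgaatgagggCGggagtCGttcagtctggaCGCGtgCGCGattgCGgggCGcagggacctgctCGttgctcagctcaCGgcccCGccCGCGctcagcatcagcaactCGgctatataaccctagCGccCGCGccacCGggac
Neurod6: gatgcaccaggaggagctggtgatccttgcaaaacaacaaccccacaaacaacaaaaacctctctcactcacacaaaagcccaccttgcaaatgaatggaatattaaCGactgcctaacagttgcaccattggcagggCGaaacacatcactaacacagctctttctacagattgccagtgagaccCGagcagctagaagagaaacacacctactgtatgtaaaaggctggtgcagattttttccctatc
Nhlh1: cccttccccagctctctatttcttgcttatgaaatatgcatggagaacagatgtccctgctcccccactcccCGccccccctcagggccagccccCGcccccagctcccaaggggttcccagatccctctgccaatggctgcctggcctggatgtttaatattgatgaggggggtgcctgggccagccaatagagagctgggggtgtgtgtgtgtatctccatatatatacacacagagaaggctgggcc

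Across the 5 genes, H3K4me3 was listed at 2 in NEC, 4 in aRG-P and 5 in each of aRG-N, bRG and N. Within the intervals, H3K27me3 was listed at 4 genes in NEC, against 2 for aRG-P, 3 for aRG-N, 0 for bRG and 1 for neurons. Joined over the 5 lists, its peaks formed 4 regions at these genes, one for each gene except Neurod6. Of these 4 regions NEC had a peak in 4, where 67.4% of all 13700 joined H3K27me3 regions had one. For aRG-P it was 2 of 4 (background 32.8%), for aRG-N 3 of 4 (47.3%), for bRG 1 of 4 (22.1%) and for neurons 2 of 4 (39.0%), counting at Neurod2 the bRG and N peaks beyond the interval. The genes without a listed H3K4me3 peak in NEC were Neurod2, Neurod6 and Nhlh1, and in aRG-P Nhlh1. With H3K4me3 lists of equal length, the mark was listed at 0 genes in NEC and 3 in aRG-P, where the Neurod6 peaks dropped out. Touching H3K4me3 peaks of the 5 lists joined into 6 regions at these genes, of which 4 had no NEC peak, while 4.16% of all 17229 such regions had none. The count for bRG and N was 6 of 6, where 73.9% of all regions had a peak in bRG and 75.9% in N. For aRG-P and aRG-N it was 5 of 6 each, against 73.6% and 79.1%. Nothing is read from these shares, since the presence of peaks guided the choice of genes.

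**Figure D1:**
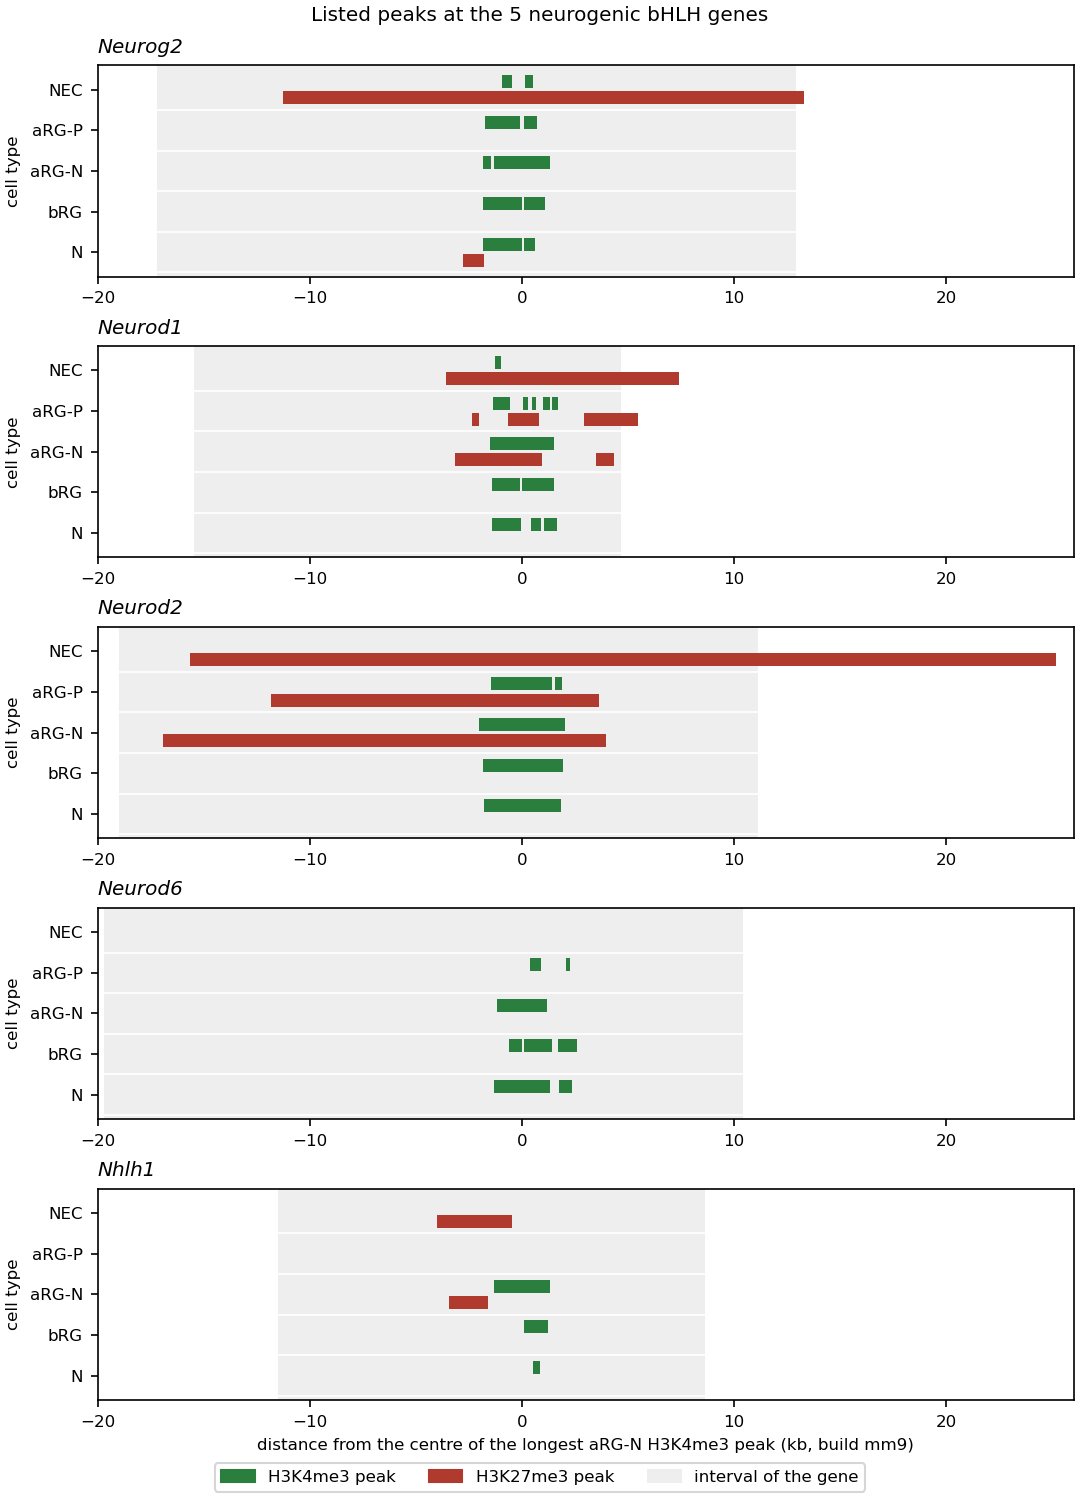
Listed peaks at each gene by cell type. The horizontal axis is the distance in kb (mm9) from the centre of the longest aRG-N H3K4me3 peak of that gene, green bars are H3K4me3 peaks, red bars are H3K27me3 peaks, and grey marks the interval of the gene. Only peaks that overlap the interval are drawn. Red bars are long in NEC at Neurog2, Neurod1 and Neurod2 and missing at every gene in bRG, while green bars reach all 5 genes in aRG-N, bRG and N.

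Neurog2, the proneural factor of cortical progenitors, had H3K4me3 in every list. In NEC it comprised short peaks of 486 and 370 bp, from 127336206 to 127336691 and from 127337305 to 127337674 on chromosome 3. Their fold enrichments, the authors' ratio of each peak to background, were 4.93 and 5.42. That placed them at percentiles 5.8 and 8.7 of the NEC list, among its weakest peaks.

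In aRG-P the same stretch held peaks of 1664 and 594 bp, with fold enrichments of 14.1 and 10.7 and percentiles of 88.7 and 64.2. In aRG-N a peak of 2665 bp from 127335813 to 127338477 had a fold enrichment of 21.2, at percentile 96.1, beside a weak one of 373 bp at 5.71. Among the H3K4me3 peaks of the 5 genes, none had a higher percentile of fold enrichment in its list than the longer of these. In bRG the peaks measured 1861 and 978 bp (12.4 and 12.9, percentiles 84.3 and 87.9), and in N 1852 and 511 bp (9.36 and 7.71, percentiles 63.6 and 43.7). Fold enrichment comes from separate peak calls, so these values rank peaks within a list and measure no change between lists.

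H3K27me3 at Neurog2 was a domain of 24.5 kb in NEC, from 127325871 to 127350414, at percentile 99.2 of that list by width. It enclosed both NEC H3K4me3 peaks, which began 10335 and 11434 bp inside its start. No H3K27me3 peak was listed in aRG-P, aRG-N or bRG. The neuron list had a short peak of 1011 bp from 127334349 to 127335359, at percentile 11.5 of its scores, which met the edge of an N H3K4me3 peak over 74 bp. In the E14.5 lists the nearest H3K27me3 peaks beyond the interval lay 116.9 kb (aRG-N) to 141.9 kb (aRG-P and bRG) away. The H3K4me3 peaks of the 4 E14.5 lists fell wholly inside the stretch that the NEC domain had covered.

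Neurod1, a target of Neurog2 in committed cells, also had H3K4me3 in every list. NEC held 283 bp from 79294109 to 79294391 on chromosome 2, with a fold enrichment of 4.43 at percentile 3.1, the lowest percentile of any NEC member. In aRG-P the mark was broken into 5 short peaks of 194 to 839 bp, which together covered 1866 bp, and the strongest had a fold enrichment of 6.33 at percentile 24.2. In aRG-N it was an unbroken peak of 3043 bp from 79293868 to 79296910 with a fold enrichment of 11.7, at percentile 49.3. In bRG 2 peaks covered 2820 bp (top fold enrichment 8.27, percentile 47.0), and in N 3 peaks covered 2458 bp (7.44, percentile 40.9). The outer limits hardly moved in the E14.5 lists, with spans of 3067 bp in aRG-P, 3043 bp in aRG-N, 2918 bp in bRG and 3054 bp in neurons.

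Polycomb methylation at Neurod1 was present in NEC and both apical types and unlisted in bRG and N. NEC had a domain of 10977 bp from 79291800 to 79302776. The aRG-P list had fragments of 296, 1503 and 2542 bp within it, and aRG-N had peaks of 4102 and 841 bp. In aRG-N the longer of these overlapped the H3K4me3 peak over 2445 bp, 80.3% of that peak, and in aRG-P 28.6% of the H3K4me3 length overlapped H3K27me3. Outside the interval, a flanking H3K27me3 site was listed in all 5 cell types, between 8.9 and 11.1 kb before the interval. Its peak measured 537 bp in NEC, 1061 bp in aRG-P, 3491 bp in aRG-N, 912 bp in bRG and 2798 bp in neurons. The bRG and N lists thus held the mark 10761 and 10010 bp from the interval in which they listed none.

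Neurod2, a factor of differentiating glutamatergic neurons, had no H3K4me3 peak in NEC. In aRG-P peaks of 2894 and 327 bp were listed, with fold enrichments of 8.66 and 8.14 at percentiles 47.6 and 42.2. A single peak spanned the site in the other E14.5 lists, 4070 bp in aRG-N (98186908 to 98190977, fold enrichment 19.3), 3805 bp in bRG (13.9) and 3650 bp in N (10.45). These stood at percentiles 91.1, 93.2 and 76.6 by fold enrichment. By width they stood at 99.5, 99.7 and 99.6, and the longer aRG-P peak also stood at 99.5. Neurod2 thus carried one of the broadest H3K4me3 peaks of each E14.5 list. All 3650 bp of the N peak lay inside the aRG-N peak.

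H3K27me3 covered Neurod2 most widely. The NEC domain measured 40.8 kb, from 98173296 to 98214099, and ran past the interval. It was 15.5 kb in aRG-P (98177104 to 98192561) and 20.9 kb in aRG-N (98172044 to 98192896), and no peak was listed in bRG or N. In aRG-P and aRG-N the H3K4me3 peaks lay wholly within these domains, 10375 and 14864 bp from their starts, so that the whole H3K4me3 length overlapped H3K27me3. Past the interval, where the NEC domain went on, each E14.5 list held a separate H3K27me3 peak, of 1827 bp in aRG-P, 7410 bp in aRG-N, 921 bp in bRG and 6225 bp in neurons. The N peak ran from 98207345 to 98213569, so N listed the mark beside Neurod2 and not over it.

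Neurod6, which marks committed excitatory neurons, was the only one of the 5 with no H3K27me3 peak in any list. The nearest listed H3K27me3 peak lay 206.1 kb from the interval in NEC and 531.2 kb or more away in the E14.5 lists. The lists keep only peaks near transcripts, so these distances do not show that the stretch between lacked the mark. No H3K4me3 peak was listed in NEC, and the nearest listed NEC H3K4me3 peak was 207.2 kb away. In aRG-P the mark was at the limit of the list, with peaks of 487 and 182 bp on chromosome 6 whose fold enrichments of 3.999 and 3.86 stood at percentiles 2.8 and 2.1. Both dropped out at a −log10 q of at least 5 and in lists of equal length. In aRG-N a peak of 2355 bp from 55628458 to 55630812 had a fold enrichment of 7.85 (percentile 27.5). In bRG 3 peaks covered 2862 bp (highest 6.32, percentile 28.6), and in N 2 peaks covered 3220 bp, the longer from 55628339 to 55630944 (6.60, percentile 30.0). Neurod6 was the only gene whose H3K4me3 length was greatest in N. By width, the longest peak of each list stood at percentile 35.7 (aRG-P), 95.9 (aRG-N), 82.7 for the bRG list and 98.5 for neurons, and no peak of Neurod6 exceeded percentile 30.0 by fold enrichment.

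Nhlh1, a bHLH gene of newly formed neurons, was the only gene with no H3K4me3 peak listed in either NEC or aRG-P. A peak of 2625 bp was listed in aRG-N, from 173985123 to 173987747 on chromosome 1, with a fold enrichment of 14.1 at percentile 63.2. In bRG it was 1109 bp (7.50, percentile 39.6), and in N 317 bp from 173986955 to 173987271 (5.79, percentile 21.7). The N peak lay inside the bRG peak and the bRG peak inside the aRG-N peak. Of all joined H3K4me3 regions, 0.203% shared this pattern of presence in aRG-N, bRG and N with absence in NEC and aRG-P.

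H3K27me3 at Nhlh1 was listed in NEC (3539 bp, 173982420 to 173985958) and in aRG-N (1832 bp, 173982996 to 173984827). In aRG-N the marks lay side by side, the H3K4me3 peak starting 295 bp after the last base of the H3K27me3 peak. The aRG-N H3K4me3 peak reached 836 bp into the stretch that carried H3K27me3 in NEC. The bRG and N H3K4me3 peaks did not touch that stretch.

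**Figure D2:**
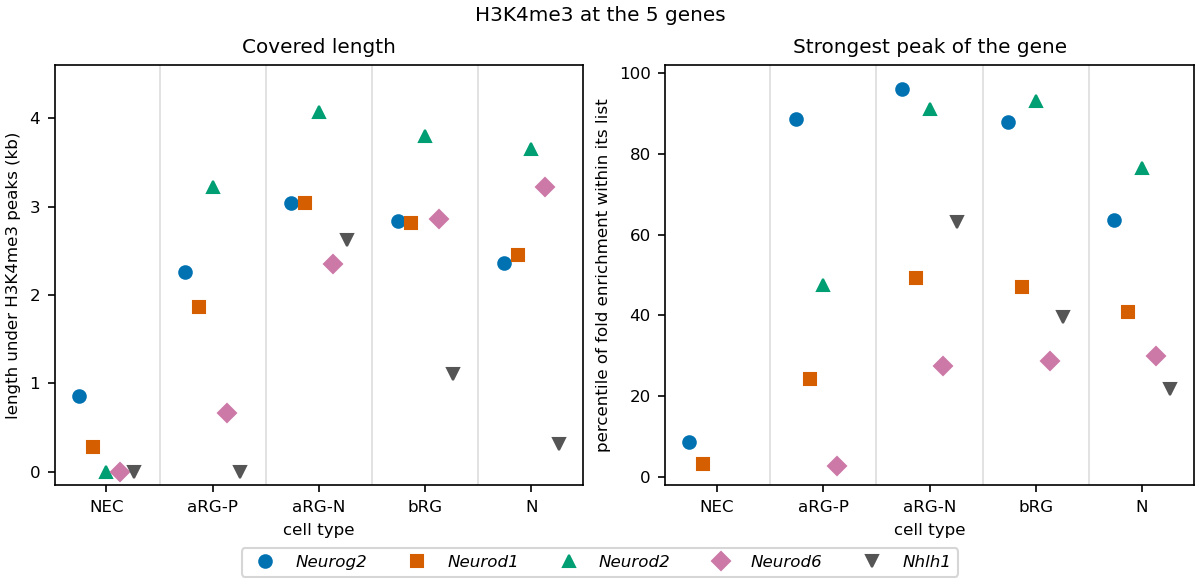
H3K4me3 at the 5 genes by cell type, with 1 list per cell type and no error to show. The left axis gives the total length of listed peaks in kb, with 0 where none was listed; the right axis gives the percentile, within its own list, of the peak with the highest fold enrichment. In aRG-N the lengths run between 2355 bp (Neurod6) and 4070 bp (Neurod2), and the NEC points of Neurog2 and Neurod1 are at percentiles 8.7 and 3.1.

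Seen over genes, aRG-N was the list with the greatest H3K4me3 length at Neurog2 (3038 bp), Neurod1 (3043 bp), Neurod2 (4070 bp) and Nhlh1 (2625 bp). In NEC the lengths were 856 bp at Neurog2, 283 bp at Neurod1 and 0 elsewhere. The order of the genes also differed between lists. Nhlh1 was shorter than Neurod6 in bRG (1109 against 2862 bp) and in N (317 against 3220 bp), and longer in aRG-N (2625 against 2355 bp). NEC peaks were not short in general, with a median width of 1002 bp over the whole H3K4me3 list. The medians of the later lists were 631 bp in aRG-P, 927 bp in aRG-N, 756 bp in bRG and 719 bp in neurons, so aRG-N peaks were wider in general, and the part this had in the lengths at the 5 genes was not tested. The aRG-P and aRG-N H3K4me3 headers state a window of 2000 bp around transcripts, which the other headers do not.

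**Figure D3:**
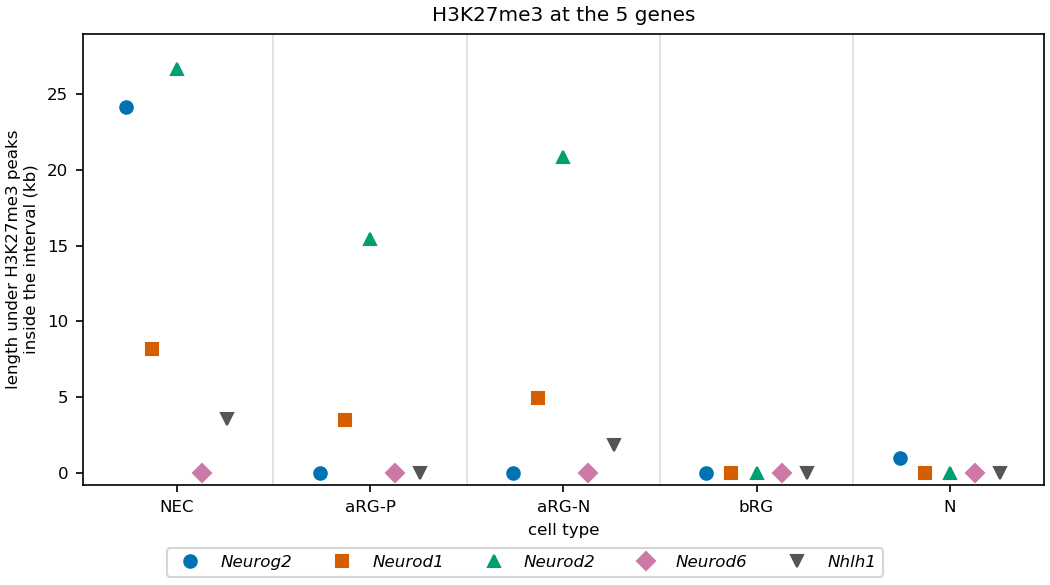
Length under H3K27me3 peaks inside the interval of each gene, in kb, by cell type, with 1 list per cell type. Neurod2 and Neurog2 hold 26.7 and 24.1 kb in NEC, all points are at 0 in bRG, and in N only Neurog2 is above 0, with 1011 bp.

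Of the 4 NEC H3K27me3 peaks at these genes, aRG-P peaks left 2 untouched along their whole length, aRG-N peaks 1, bRG peaks 3 and neuronal peaks 2. Of all 5798 autosomal NEC peaks the share left untouched was 50.4% by aRG-P, 38.5% by aRG-N, 57.1% by bRG and 41.0% by N, so these counts are near the background. Long NEC domains were more often overlapped. Among the 319 autosomal ones of at least 10 kb, 11.3% were untouched by bRG peaks and 7.84% by N peaks. Of the 3 members of that length, Neurog2 and Neurod1 were untouched in bRG (2 of 3) and Neurod1 in N (1 of 3). The Neurod2 domain counts as overlapped in bRG and N through the separate peak beyond the interval. In aRG-P and aRG-N the shares were 7.84% and 8.46%, with Neurog2 the 1 of 3 in each.

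The absence of H3K27me3 in bRG is a weak observation by itself. The bRG list was the shortest, and only 22.1% of the H3K27me3 regions joined over the 5 lists had a bRG peak. With every H3K27me3 list cut to the bRG length, the mark was listed at 4 genes in NEC, 2 in aRG-P and 3 in aRG-N. In those cut lists it was at 0 genes in both bRG and N. What part list length had in the bRG absence was not tested. Such shares depended on width. Of the autosomal NEC peaks, 81.8% of those under 2 kb and 11.3% of those of at least 10 kb had no bRG peak. Peak numbers were found to run along each chromosome in all 10 lists. A run of consecutive numbers on either side of an empty interval thus shows that no numbered call was left out between them. This held for 8 of the 15 empty H3K27me3 intervals, including bRG at Neurog2, Neurod1, Neurod2 and Nhlh1. Calls excluded before numbering would leave no gap in the numbers, and the aRG-P H3K27me3 names mention an excluded set. At Neurod1 and Neurod2 in N, 1 and 2 numbered calls between the flanking peaks were not in the list used here, and at Neurod6 1 to 4 were missing over stretches of 907.1 to 9607.6 kb. None of the 4 empty H3K4me3 intervals had consecutive numbers, with 1 to 3 calls missing, so a call that was not kept there cannot be told apart from no call.

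Overlap of both marks in a cell type was listed at Neurog2 and Neurod1 in NEC, at Neurod1 and Neurod2 in aRG-P and in aRG-N, at none of the genes in bRG, and at Neurog2 alone in N. All 3 NEC H3K4me3 peaks at these genes overlapped NEC H3K27me3, against 25.9% of all NEC H3K4me3 peaks. In aRG-P it was 5 of 11 (background 8.9%), in aRG-N 2 of 6 (14.4%), in bRG 0 of 9 (8.41%) and in N 1 of 9 (12.7%). With a −log10 q of at least 5 the NEC overlap was left at 1 gene, Neurog2, and in lists of equal length at 0, and the N overlap at Neurog2 was also lost in lists of equal length. Peaks of the same gene are not independent, and overlap of separate lists does not place both marks in the same cells. H3K4me3 over a stretch that carried H3K27me3 in NEC and carried none in the later cell type was found for 5 of 9 bRG peaks, with a background of 12.5%, and 5 of 9 N peaks, with 9.87%. In bRG these were the peaks of Neurog2, Neurod1 and Neurod2, and in N those of Neurod1, Neurod2 and the shorter Neurog2 peak. No peak of Neurod6 or Nhlh1 was among them.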

How the data were processed

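Chromatin immunoprecipitation used a kit for low cell numbers, per the labels' protocols. Bowtie 1.0.0, MACS2 and bedtools, with build mm9, appear in the submitters' processing notes. The 10 lists keep only peaks near transcripts, per the file headers, and were called on combined samples, per the peak names. The aRG-P H3K27me3 names mention an excluded set and the N H3K27me3 names a read extension of 200 bp, so these lists were made differently. For H3K4me3 the deposited values are a fold enrichment (a ratio) and a −log10 p and −log10 q per peak, by the authors' peak caller. The deposited H3K27me3 columns are called a score, since their meaning could not be settled, and only percentiles of the first are given. Input samples were not analysed here.

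Peaks were read and compared in Python 3.11.15 (pandas 2.3.3, numpy 2.4.6, scipy 1.17.1; figures in matplotlib 3.10.9). Overlap means at least 1 bp, positions are 1-based, and percentiles count ties in part. Joined regions merge touching peaks of the 5 lists of a mark. All 5 genes are named, with every peak overlapping their interval. Genes and intervals were chosen with earlier results of these data known. No mm9 annotation was used, so other bHLH genes were not analysed here. Overlap calls were checked on the aRG-N lists with known peaks removed at random. They were also checked against a direct comparison of aRG-N and N peaks on part of the genome. Alternatives were stricter peaks, lists cut to equal length, other intervals, wider overlap and joined gaps. No test between cell types was possible with 1 list each.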

Additional observations from a re-analysis of the deposited data

How the results depend on the processing

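Of 155 recomputed values, 140 stayed within 1.5 times the value given above, 130 of them identical, and 15 moved further. Narrowing or widening each interval by 5000 bp moved no count beyond that limit, and neither did a lowest H3K27me3 score of 15.8, which was added after seeing the data. With a −log10 q of at least 5, H3K4me3 was listed at 1 gene in NEC and both marks overlapped at 1. With lists cut to the shortest of their mark, NEC had H3K4me3 at 0 genes and overlap at 0, N had H3K27me3 at 0 genes and overlap at 0, and Neurog2 had H3K27me3 in 1 cell type and overlap in 0. With H3K27me3 peaks of at least 2000 bp, Neurog2 and Nhlh1 each had the mark in 1 cell type and N had it at 0 genes. With an overlap of 50% of the shorter peak, both marks met at Neurog2 in 1 cell type and in N at 0 genes. Joining gaps up to 3000 bp changed the H3K27me3 length inside the Neurod1 interval from 3491 to 6945 bp in aRG-P and from 4943 to 7503 bp in aRG-N. Smaller shifts were the loss of the aRG-P Neurod6 H3K4me3 peaks at that −log10 q and in cut lists (Neurod6 in 3 cell types, aRG-P at 3 genes) and of the aRG-N Nhlh1 H3K27me3 peak at 2000 bp (aRG-N at 2 genes). No paired analysis was possible because each list combines its samples, and no replicate could be left out for the same reason. Read depth is unknown.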

Other observations

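The E-box CANNTG, the motif that bHLH proteins bind, was searched in the 250 bases before the start of each gene in GRCm38.p6, where it reads alike on both strands. It was found 3 times in Neurod2, 2 times in Neurod6, and once in each of Neurod1 and Nhlh1, and not in Neurog2. Of 32851 promoters 66.2% held it, so its presence does not set these genes apart. CAGATG, read on either strand, was in Neurod2 and Nhlh1 and in 14.4% of promoters, and CATATG was in Neurod1 and Neurod2 and in 3.46%. Both are among the matches to CANNTG. A match is a description of these letters only.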
